A study of Mus musculus with 22 samples.

Results

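The natural killer gene complex is a cluster of genes for C-type lectin-like receptors on mouse chromosome 6. Its members here are all transcript rows that start between 128.8 and 131.0 Mb on that chromosome in the genome build mm9. The window holds 59 rows of 47 genes, of 26886 rows and 21050 genes in all. Rows of 18 genes are present in all 4 RNA libraries, and the other 29 genes (41 rows) are listed for the replicate 1 libraries only and are marked as such below. In the order of the chromosome the window was divided into Clec2 and Klrb1 genes (8 genes), myeloid C-type lectin genes with Olr1 (9 genes), Klrd1, Klrk1 and Klrc genes (10 genes) and Klra or Ly49 genes (20 genes). The rule for a member uses position alone, although the region was picked with earlier results of these data known. A few neighbours with other functions, such as Gabarapl1, lie inside it.

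RNA sequencing compared primary mouse embryonic fibroblasts (MEFs) that were wild type (WT, Lsh+/+) with MEFs lacking Lsh (KO, Lsh-/-). Lsh, the protein of the gene Hells, is a chromatin remodeller needed for normal DNA methylation, and the KO carries no further allele or agent in the labels. All cells came from the body of C57BL/6 embryos at E13.5, have no treatment named in the labels and were used at passage 3 to 4. Each genotype has 2 RNA libraries, called WT1, WT2, KO1 and KO2 after genotype and replicate number, and the labels do not say whether libraries of 1 number share a litter or a day, or whether embryos were pooled. P-values therefore measure the spread between these 4 libraries, part of which may be technical.

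As background, the receptors of this complex are membrane proteins with an extracellular domain related to that of C-type lectins, and natural killer cells are their best known carriers. Klra (Ly49) receptors bind MHC class I molecules on other cells and either inhibit or activate the natural killer cell. Klrk1 encodes the activating receptor NKG2D, Klrd1 and the Klrc genes encode the CD94 and NKG2 chains, and the Clec2 genes encode ligands of Klrb1 receptors. The genes between Clec12a and Olr1 encode receptors of myeloid cells, platelets and endothelium that bind fungal glucans, products of dead cells or oxidised lipoproteins.

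To place the values beside the DNA at these genes, promoter sequences were taken from RefSeq (build GRCm38.p6, which is not the build of the expression rows). The RefSeq windows have 300 bases, 250 before and 50 after a transcript start, and 30 of the 47 genes matched 35 windows. The sequences below are the 250 bases before the start for the members tested for a genotype difference that matched an entry, together with Klra4, whose row lies over the same DNA as that of Klra18. Klra18 had no entry. Each is written 5′ to 3′ on the gene's strand, and capitals mark CG dinucleotides, the sites at which mammalian DNA is methylated. They are shown because Lsh is needed for normal DNA methylation, and because the KO minus WT differences given below are large for Klra5 and Olr1 and small for Clec2d and Gabarapl1.
Klra5, chr6:129913225-129913474, minus strand: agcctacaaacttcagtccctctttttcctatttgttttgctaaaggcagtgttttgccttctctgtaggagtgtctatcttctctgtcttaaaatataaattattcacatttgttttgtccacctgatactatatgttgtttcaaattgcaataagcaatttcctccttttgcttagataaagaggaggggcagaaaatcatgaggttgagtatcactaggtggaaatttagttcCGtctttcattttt
Klra4, chr6:130067272-130067521, minus strand: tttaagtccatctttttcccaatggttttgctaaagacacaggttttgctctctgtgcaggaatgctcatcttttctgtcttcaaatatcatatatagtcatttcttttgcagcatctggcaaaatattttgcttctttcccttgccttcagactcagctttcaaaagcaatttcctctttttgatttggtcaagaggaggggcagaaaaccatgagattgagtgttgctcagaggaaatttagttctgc
Olr1, chr6:129507166-129507415, minus strand: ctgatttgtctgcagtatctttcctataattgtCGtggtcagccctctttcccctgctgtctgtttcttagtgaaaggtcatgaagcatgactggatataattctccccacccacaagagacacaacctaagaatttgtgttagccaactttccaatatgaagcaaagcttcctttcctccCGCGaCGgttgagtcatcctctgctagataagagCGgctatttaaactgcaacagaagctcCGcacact
Clec2d, chr6:129180365-129180614, plus strand: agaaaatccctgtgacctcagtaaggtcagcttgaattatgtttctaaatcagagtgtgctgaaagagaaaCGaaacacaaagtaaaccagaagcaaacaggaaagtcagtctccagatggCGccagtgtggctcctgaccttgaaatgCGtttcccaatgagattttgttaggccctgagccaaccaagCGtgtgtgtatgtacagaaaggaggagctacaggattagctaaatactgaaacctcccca
Gabarapl1, chr6:129532942-129533191, plus strand: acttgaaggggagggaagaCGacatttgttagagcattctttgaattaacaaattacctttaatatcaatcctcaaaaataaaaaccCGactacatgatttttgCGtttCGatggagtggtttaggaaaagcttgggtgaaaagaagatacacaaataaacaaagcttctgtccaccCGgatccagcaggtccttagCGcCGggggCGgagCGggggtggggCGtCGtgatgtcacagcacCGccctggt

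The sequence CG, which reads the same on both strands, was counted over the full windows of 300 bases. Klra5 has 3 CG dinucleotides, Klra4 has 0, Olr1 has 7, Clec2d has 5 and Gabarapl1 has 12. The 35 windows of the complex held 0 to 12, with a median of 3, against a median of 7 in all 32851 promoter windows of the same length. In 20 of the 30 matched genes every window held at most 3, which 31.4% of all windows do. Gabarapl1 alone of the matched genes reached 10, which 43.5% of all windows do. Median GC content was 40.0% in the complex and 52.7% in all windows. Among the 10 Klra genes with a window, the first window of Klra5 was 76.0% identical to that of Klra6, 68.5% to that of Klra4 and 48.2% to 66.3% to those of the others. These counts describe the letters only, since methylation is not measured in the files used here.

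**Figure D1:**
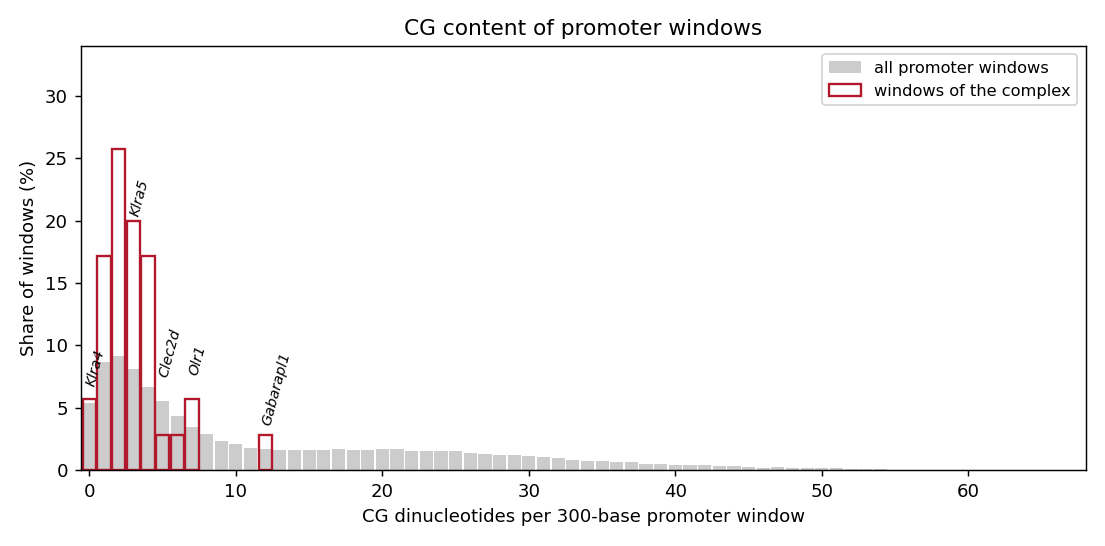
Number of CG dinucleotides per promoter window of 300 bases (x axis) against the share of windows in percent (y axis). Grey bars are all 32851 RefSeq windows and red outlines the 35 windows of the complex. The windows of the complex lie between 0 and 12, and Gabarapl1, at 12, is the highest.

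The libraries held 122.5 to 176.6 M (mega) mapped reads, a depth recovered from the values themselves. Values are RPKM (reads scaled to transcript length in kilobases and to mapped reads in M), which allows levels to be compared between genes. A value of 0 is given as "listed at 0", because Gapdh, which every cell uses, was listed at 0 in WT2 and at most at 0.298 RPKM elsewhere. Hells was at 0.865 RPKM in WT1, 1.06 in WT2, 0.430 in KO1 and 0.550 in KO2, which follows the labels, although the deleted part of the gene is not stated in them. All 10 fibroblast markers were present in every library, and 0 of them passed a test between genotypes. Some of them differed widely between the replicate numbers. Lum was at 0.718 RPKM in WT1 and 1.27 in KO1, but at 108.2 in WT2 and 104.6 in KO2. Vim differed less, at 1307.2, 1198.4, 879.2 and 782.2 RPKM in that order. Files of the 2 replicate numbers hold different sets of rows, 26886 for number 1 and 21136 for number 2, so KO minus WT is given within each number as well as over all 4 libraries. A row of the replicate 2 libraries is above 0 in at least 1 genotype, so a gene in all 4 libraries that is listed at 0 in WT2 has to be above 0 in KO2. This held for 6 of the 18 genes of the complex, and for 0 with the genotypes exchanged.

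Most of the complex was listed at or near 0 in these cells. Of the 47 genes, 26 were listed at 0 in every library that lists them, 35 stayed below 0.1 RPKM throughout, 12 reached 0.1 RPKM and 5 reached 1 RPKM in at least 1 library. In order along the chromosome those 5 were Clec2d, Olr1, Gabarapl1, Klra5 and Klra18. Rows above 0 made up 23.7% of the 59 rows in WT1 (exact 95% binomial interval 13.6% to 36.6%) and 35.6% in KO1 (23.6% to 49.1%), against 73.0% and 74.2% of all rows of these libraries. Of the 18 rows listed for replicate 2, 66.7% were above 0 in WT2 (41.0% to 86.7%) and 100% in KO2 (81.5% to 100%), against 96.6% and 97.3% of all rows. Within each replicate number, more rows of the complex were above 0 in KO than in WT. The intervals for WT1 and KO1 overlap, as do those for WT2 and KO2, but they do not compare the genotypes. They treat rows of 1 library as independent, while rows of 1 gene or over the same DNA are not, and both genotypes list the same rows. Rows at 0 in both replicate 2 libraries are not listed, which raises the shares of WT2 and KO2. Values above 0 but below 1e-05 RPKM count as above 0 here. With a limit of 1e-05 RPKM, added after the data were seen, the shares were 20.3% in WT1, 27.1% in KO1, 66.7% in WT2 and 88.9% in KO2. The intervals cover counting error only.

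**Figure D2:**
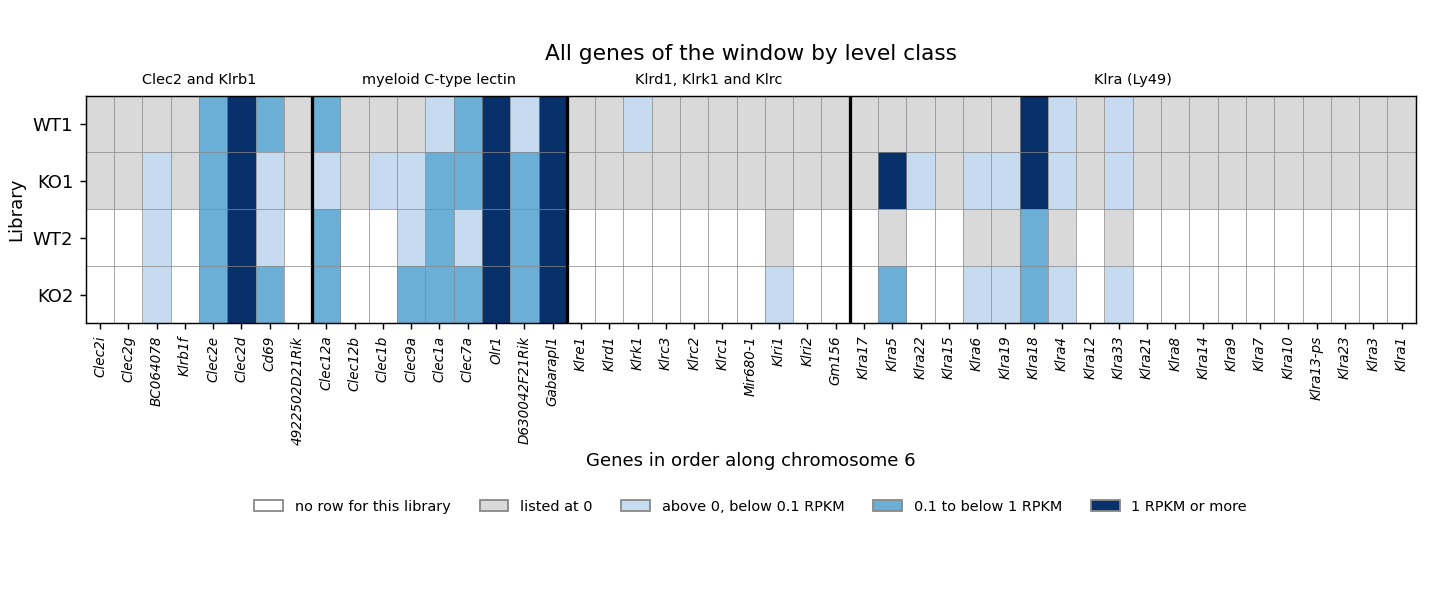
The 47 genes of the window in order along chromosome 6 (x axis) in each of the 4 libraries (y axis), coloured by level class in RPKM, with white where a library has no row. Dark blue, 1 RPKM or more, appears for 5 genes, and Klra5 changes from grey in both WT libraries to blue in both KO libraries. The light blue of Klra4, of Klra33 and of Klra19 in KO1 stands for values below 1e-05 RPKM.

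Setting KO against WT addresses which RNAs change in level without Lsh. A minimum of 0.5 RPKM in 2 or more libraries left 11149 genes to test, and 5 of them lie in the complex. With genotype as the only term, limma called 0 genes (0.0% of those tested) at an adjusted p below 0.05, and 0 of the 5 members; 41 genes and 1 member, Klra5, had an unadjusted p below that value. When the replicate number was added as a term, limma called 75 genes (0.673%), 42 higher in KO (0.377%) and 33 lower (0.296%), and 3 of the 5 members, Klra5, Olr1 and Klra18, were among the 42. "Rose" and "fell" refer below to this second fit, in which 1 residual degree of freedom remains per gene and the p-values rest mainly on a variance shared across genes. Klra5 passed the expression filter only through its KO libraries, so it had to differ to be tested, and the count of 3 is given as a description. Without a filter on level the median log2 change was 0.13 over the 18 genes of the complex in all 4 libraries and -0.0073 over all 16271 genes. Presence in all 4 libraries still selects genes, since some members are listed for replicate 2 only because KO2 is above 0. These medians are therefore a description too.

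Direction can also be counted without a filter on level. Among the 18 genes in all 4 libraries, 10 were higher in KO within both replicate numbers, against 23.1% of all 16271 genes in all 4 libraries. Clec12a alone was lower within both, against 29.0% of all genes. Of the 10, 3 (Klra5, Klra6 and Klra19) are listed at 0 in WT2 and so had to be higher in KO2. The 10 were 6 of the 7 myeloid lectin segment genes in all 4 libraries and 4 of the 6 Klra genes. Those of the segment include D630042F21Rik and Gabarapl1, which are not lectins. The counts in this paragraph go by gene name, and some Klra names share DNA. Klra6 and Klra19 have rows over the same stretch, as do Klra18, Klra4 and Klra33, so they are not independent. Klra19 counts as higher in number 1 on 1.96e-09 RPKM in KO1 against 0 in WT1. In the Clec2 and Klrb1 segment 0 of 4 genes kept 1 direction in both numbers. Both KO libraries lay above both WT libraries for 5 genes, Clec7a, D630042F21Rik, Klra5, Klra6 and Klra19, against 7.79% of all genes, and 0 genes showed the reverse, against 8.02%. Counting only genes with at least 0.05 RPKM in 1 of the libraries of each number, a limit added after the data were seen, 7 of 11 were higher and 1 was lower, against 23.5% and 31.5% of all genes above that limit. With median-ratio scaling, also added, 11 of 18 were higher and 1 was lower, against 26.9% and 25.9% of all genes.

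**Figure D3:**
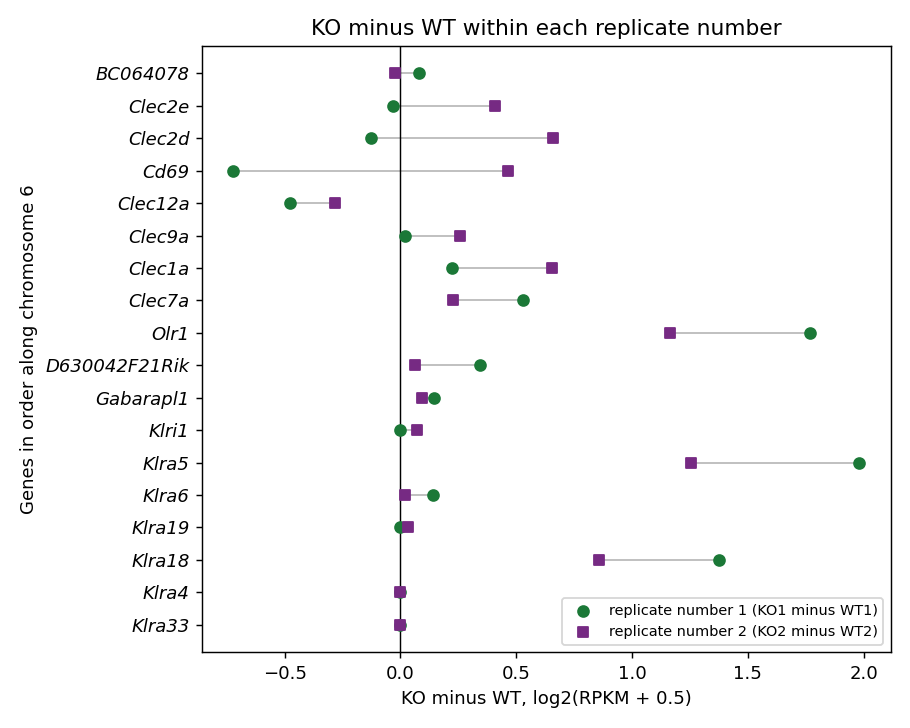
KO minus WT on the log2(RPKM + 0.5) scale (x axis) for the 18 genes in all 4 libraries in order along chromosome 6 (y axis), with green circles for replicate number 1 and purple squares for number 2. Klra5, Olr1 and Klra18 lie farthest to the right in both numbers, and Clec12a is left of 0 in both.

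The Klra or Ly49 genes at the far end of the window included the gene with the largest log2 difference of the complex on the log2(RPKM + 0.5) scale, whereas with 1 RPKM added Olr1 was larger (1.32 against 1.03). Klra5, which encodes the receptor Ly49E (chromosome 6, 129849009 to 129863243, minus strand), was listed at 0 in WT1 and in WT2, at 1.47 RPKM in KO1 and at 0.695 RPKM in KO2. Those KO values correspond to 180.6 and 94.6 reads per kilobase of transcript. The KO libraries were thus high and the WT libraries low, with no overlap. In limma with the number as second term, Klra5 was higher in KO by 1.62 on the log2(RPKM + 0.5) scale (SE 0.19, 2 libraries per genotype, adjusted p 0.00587). That p is given as a description, since Klra5 passed the filter only through KO1 and KO2 and had to differ to be tested. With genotype alone the SE was 0.43 and the limma adjusted p 1.00. The difference was 1.98 within number 1 and 1.26 within number 2. Because WT is listed at 0, its size is set by the pseudocount and gives no fold: it was 3.48 with 0.1 RPKM added and 1.03 with 1 RPKM added. Across the adjusted p-values of 6 fits with the replicate number, Klra5 ranged from 0.00378 to 0.416 and passed in 3: it was lost with quantile normalization (0.114), with no filter on low values (0.416) and with 1 transcript per gene (0.0854).

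Few genes share that pattern. It was taken from the values of Klra5, so Klra5 had to meet it, and the count is given as a description. Of all 16271 genes in all 4 libraries, 2 (0.0123%) were listed at 0 in both WT libraries and reached 0.5 RPKM in both KO libraries. They were Klra5 and Defb41, a defensin gene on chromosome 1. With no minimum level in KO, 129 genes (0.793%) were at 0 in both WT and above 0 in both KO libraries, and 3 of the 18 genes of the complex were among them, namely Klra5, Klra6 and Klra19. The reverse, 0 in both KO and above 0 in both WT libraries, held for 0.436% of all genes and 0 of the complex. Both outcomes were partly fixed in advance. A listed gene at 0 in WT2 had to be above 0 in KO2, and no gene of the complex in all 4 libraries was at 0 in KO2. Klra6 and Klra19, named after their values were seen, have rows over the same stretch of DNA on the same strand and stayed close to 0. Klra6 was at 0.0512 RPKM in KO1 and 0.00773 in KO2, and Klra19 at 1.96e-09 and 0.0121, so their place in that count rests on 6.27 reads per kilobase or fewer.

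Klra18 (chromosome 6, 129993750 to 130017277, minus strand) was present in all libraries. It was at 1.27 RPKM in WT1 and 4.09 in KO1, and at 0.219 in WT2 and 0.804 in KO2, or 167.3, 500.4, 38.6 and 109.4 reads per kilobase in that order. KO was 3.23 times WT within number 1 and 3.68 times within number 2, but the groups overlap, because WT1 lies above KO2. Klra18 rose by 1.12 on the log2(RPKM + 0.5) scale (SE 0.19, adjusted p 0.0277 in limma with the number as second term). With genotype alone the SE was 0.82 and the limma adjusted p 1.00. Its adjusted p ran from 0.00421 to 0.481 over the 6 fits with the replicate number and passed in 4. The replicate number separated the libraries more than the genotype did: both libraries of number 2 were below both of number 1 in Klra18.

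The identity of the Klra18 reads is uncertain. Of the 20 Klra gene names, 18 overlap another Klra row on the same strand, and Klra5 and Klra17 alone stand free. The names therefore do not stand for 20 separate stretches of DNA. The rows of Klra12, Klra15 and Klra22 span 262458, 408570 and 408727 bases and cover many of the others. Klra18 overlaps Klra4, Klra33, Klra12, Klra15 and Klra22. Its accession did not match the RefSeq table, as for 8 other Klra genes, while Klra4 at the same place matched. Klra4 and Klra33 were listed at 0 in WT2 and at values far below 1e-05 RPKM in the other libraries. How the authors' counting shared reads among these rows is not given in the sources used here, so transcripts of these overlapping rows cannot be told apart. Klra5 overlaps no other row, but it belongs to a family of similar genes, so its level is uncertain too.

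Of the remaining Klra genes, 14 are listed for the replicate 1 libraries only, and 13 of those were at 0 in WT1 and KO1. The exception, Klra22, was at 0.00669 RPKM in KO1. Of all 20 Klra genes, 2 reached 0.1 RPKM in any library, Klra5 and Klra18. The last gene before the far edge of the window, Klra1, was listed at 0 in WT1 and KO1. The first gene beyond that edge, Klra2, was at 0.0338 RPKM in WT1 and 0.137 in KO1, was listed at 0 in WT2 and was at 0.0123 in KO2.

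**Figure D4:**
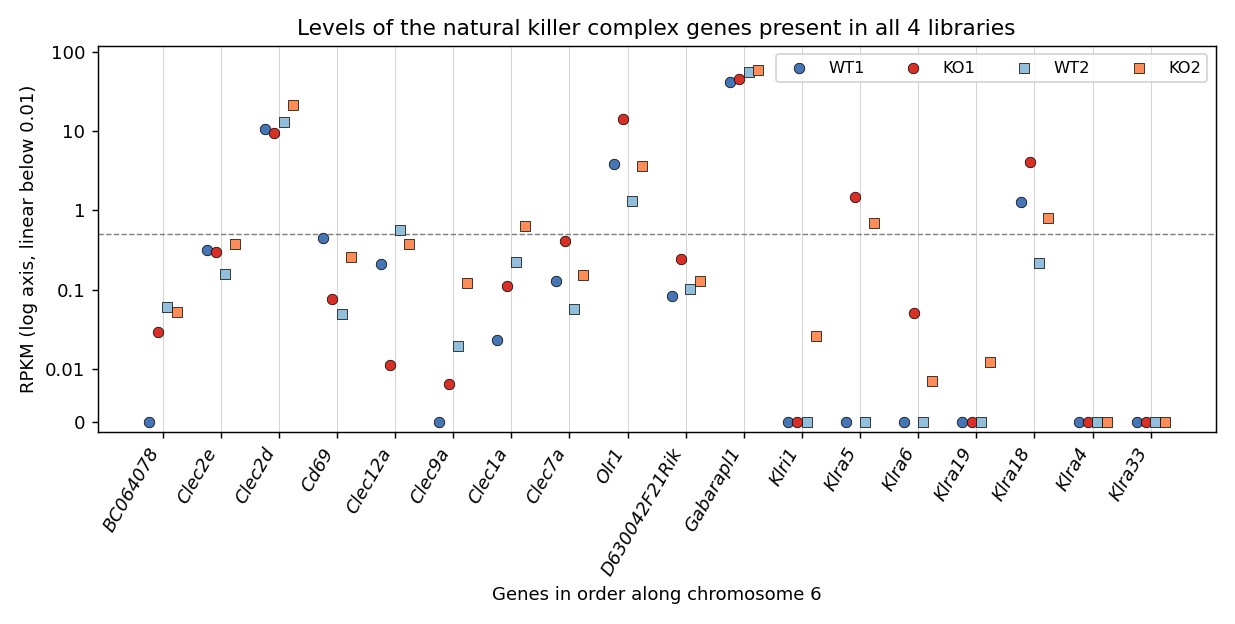
Level in RPKM (y axis, logarithmic above 0.01 and linear below) of the 18 genes in all 4 libraries, in order along chromosome 6 (x axis). Circles are replicate 1 and squares replicate 2, blue is WT and red or orange KO, and the dashed line marks the filter of 0.5 RPKM. Klra5 is at 0 in both WT libraries and at 1.47 and 0.695 in KO, whereas Gabarapl1 and Clec2d are high in all 4.

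Markers of natural killer cells were at or near 0 in WT and KO. Of 12 such markers 0 passed the filter on level, and 9 stayed below 0.1 RPKM in every library. Of the 12, 5 were listed at 0 in WT1 and KO1 and have no row in the replicate 2 libraries. They were Ncr1, an activating receptor, Gzma and Prf1, which encode killing proteins, Tbx21, a transcription factor, and Xcl1, a chemokine. The highest value was that of Eomes, another transcription factor, at 0.310 RPKM in KO1. Among the rest, 3 were higher in KO within both numbers and 0 lower. Those 3 were Eomes, Gzmb, which encodes a killing protein (0.0427 RPKM in WT1, 0.138 in KO1, 0.144 in WT2 and 0.254 in KO2), and Itga2, an integrin chain (0.0969, 0.184, 0.00134 and 0.0331 RPKM in that order). The summed level of the list was 0.481 RPKM in WT1 and 0.694 in KO1, and 0.281 in WT2 and 0.463 in KO2. These sums cover 12 markers in number 1 and 7 in number 2. The part of natural killer cells in the level of Klra5 was not tested. Among 11 T cell markers the highest was Lck, a kinase, at 0.712 RPKM in WT2, and 6 were listed at 0 throughout. Among 6 B cell markers the highest value was 0.0640 RPKM.

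Next to the Klra genes lie the genes of the CD94, NKG2 and NKG2D chains, and this segment was the quietest. Of its 10 genes 0 reached 0.1 RPKM and 8 were listed at 0 in every library that lists them, among them Klrd1, Klrc1, Klrc2 and Klrc3. Klri1, which encodes a receptor chain, was the only gene of the segment in all 4 libraries, listed at 0 in WT1, KO1 and WT2 and at 0.0263 RPKM in KO2. Klrk1 was at 0.00477 RPKM in WT1 and at 0 in KO1. These values come to at most 3.58 reads per kilobase, so a difference between genotypes was not detectable here.

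Within the myeloid lectin segment, Olr1 had the largest difference on the log2(RPKM + 0.5) scale in both numbers. It encodes LOX-1, a scavenger receptor for oxidised low-density lipoprotein (chromosome 6, 129435266 to 129457184, minus strand). Olr1 was at 3.90 RPKM in WT1 and 14.5 in KO1, and at 1.33 in WT2 and 3.61 in KO2, or 515.4, 1775.8, 235.7 and 491.6 reads per kilobase. KO was 3.72 times WT in number 1 and 2.71 times in number 2, while the groups overlap because WT1 lies above KO2. Olr1 rose by 1.47 on the log2(RPKM + 0.5) scale (SE 0.19, adjusted p 0.00734 in limma with the number as second term). With genotype alone the SE was 0.81 and the limma adjusted p 1.00. Its adjusted p ran from 0.000135 to 0.434 over the 6 fits with the replicate number and passed in 4, with 0.0944 where 1 transcript stood for each gene. Olr1 and Klra18 are the members with at least 0.1 RPKM in WT and at least 2-fold more in KO within both numbers, as are 0.326% of all genes.

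The genes between Clec12a and Olr1 were low, and they did not all differ in the same direction. Clec7a, which encodes the fungal glucan receptor dectin-1, was at 0.130 RPKM in WT1 and 0.409 in KO1, and at 0.0572 in WT2 and 0.152 in KO2. Both KO values lay above both WT values, 3.15 and 2.65 times WT within the numbers. Clec1a, a lectin-like receptor known from endothelium, was at 0.0232 RPKM in WT1, 0.110 in KO1, 0.222 in WT2 and 0.636 in KO2. KO was again the higher of each number, by 4.75 and 2.87 times, with overlap between the groups because WT2 lies above KO1. Clec9a, a dendritic cell receptor for dead cells, was listed at 0 in WT1 and was at 0.00706 RPKM in KO1, 0.0196 in WT2 and 0.121 in KO2.

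Clec12a, an inhibitory receptor of myeloid cells, went the other way. It was at 0.211 RPKM in WT1 and 0.0110 in KO1, and at 0.561 in WT2 and 0.374 in KO2. KO was 0.0522 of WT in number 1 and 0.666 in number 2, and KO2 lies above WT1. Clec12b and Clec1b are listed for the replicate 1 libraries only, Clec12b at 0 and Clec1b at 0.00886 RPKM in KO1. None of these low genes passed the filter on level, so 0 of them were tested in the fits described above.

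Macrophage genes, which mark cells that some of these lectins are known from, were lower in KO. KO was below WT for all 14 in number 1 and again in number 2, and 5 of the 12 tested fell, namely Cd14, C1qc, Laptm5, Sfpi1 and Fcgr3. Their summed level was 60.2 RPKM in WT1 and 8.45 in KO1, and 173.4 in WT2 and 83.4 in KO2, with 0 markers at 0 in WT and Aif1 at 0 in KO1. In bulk RNA, fewer cells of a type and less RNA per cell cannot be told apart. Clec12a went in the direction of this list and Clec7a, Clec1a, Clec9a and Olr1 in the opposite one, and the part of macrophage RNA in their levels was not tested. Of 6 dendritic cell markers 1 was tested, Zbtb46, and it was not called. Of 8 endothelial markers 3 were tested, and 1 of them, Flt1, a receptor for vascular growth factors, rose from 2.11 to 5.17 RPKM in number 1 and from 1.21 to 2.87 in number 2 (adjusted p 0.0288 in limma with the number as second term), and 0 fell. Summed endothelial levels were 3.90 RPKM in WT1, 5.81 in KO1, 3.19 in WT2 and 5.25 in KO2, and without Flt1 they were 1.79, 0.642, 1.97 and 2.38 RPKM in that order. KO lay above WT in both numbers for 2 of the 8 and below it for 3, Kdr, another receptor for vascular growth factors, being lower (0.918 RPKM in WT1, 0.258 in KO1, 1.05 in WT2 and 0.622 in KO2). Of the junction genes Pecam1 and Cdh5 the highest value was 0.0553 RPKM, for Cdh5 in KO1, and Tie1 was at 0 in WT1, KO1 and KO2. Their part in the rise of Olr1 was not tested.

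**Figure D5:**
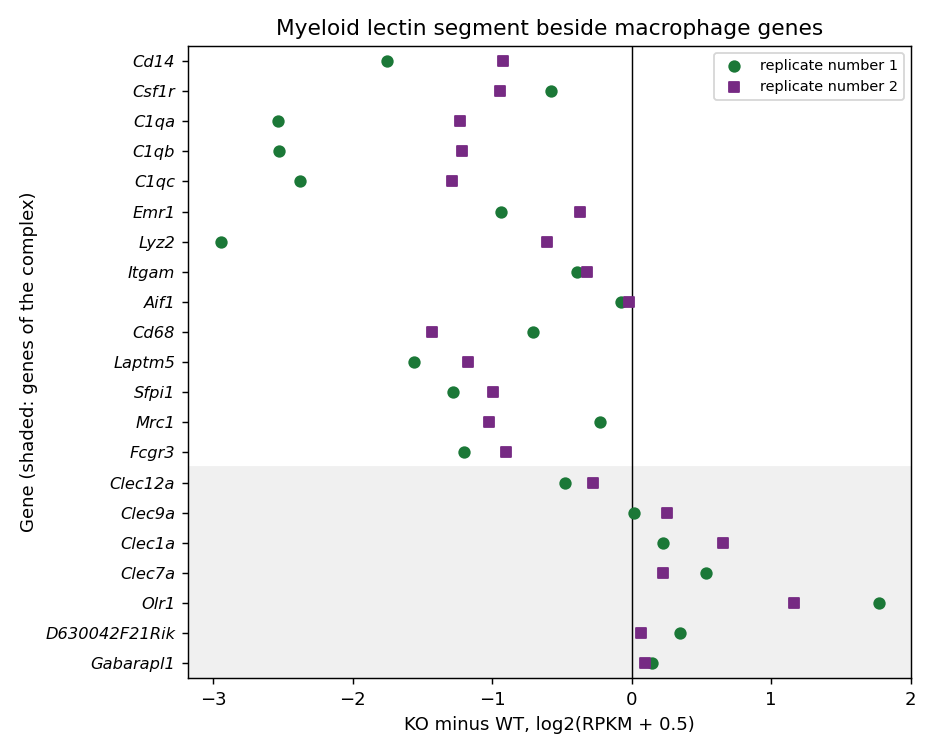
KO minus WT on the log2(RPKM + 0.5) scale (x axis) for the 14 macrophage genes (white) and the 7 genes of the myeloid lectin segment in all 4 libraries (shaded), with green circles for replicate number 1 and purple squares for number 2. The macrophage genes lie left of 0 in both numbers, and of the shaded genes only Clec12a does. D630042F21Rik and Gabarapl1, shaded as well, are not lectins.

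The next genes after Olr1 are not lectins. D630042F21Rik, called Tmem52b in RefSeq, was at 0.0842 RPKM in WT1 and 0.241 in KO1, and at 0.102 in WT2 and 0.130 in KO2. Both KO values lay above both WT values, by 2.87 and 1.27 times within the numbers. Gabarapl1, which encodes a protein of autophagosomes (chromosome 6, 129483210 to 129492350, plus strand), had the highest level of the window, 41.8 RPKM in WT1, 46.3 in KO1, 56.3 in WT2 and 60.1 in KO2. Its log2 change was 0.12 (SE 0.16, adjusted p 0.924 in limma with the number as second term; SE 0.29 and adjusted p 1.00 with genotype alone). Gabarapl1 lies between Olr1 and the Klrd1 segment.

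At the near end of the window, Clec2d was the lectin gene with the highest level. It encodes Clr-b, a ligand that inhibits natural killer cells carrying a Klrb1 receptor (chromosome 6, 129130633 to 129136554, plus strand), and is known from many cell types. Clec2d was at 10.6 RPKM in WT1 and 9.66 in KO1, and at 13.3 in WT2 and 21.2 in KO2. KO was 0.913 of WT in number 1 and 1.60 times WT in number 2, so the numbers disagree in direction. Its log2 change was 0.27 (SE 0.20, adjusted p 0.826 in limma with the number as second term; SE 0.44 and adjusted p 1.00 with genotype alone).

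The other genes of that segment were at lower levels, and 0 of them differed in the same direction in both numbers. Clec2e, a gene of the same ligand family, was at 0.313 RPKM in WT1, 0.295 in KO1, 0.157 in WT2 and 0.372 in KO2. Cd69, an activation marker of lymphocytes, was at 0.448 RPKM in WT1 and 0.0756 in KO1 but at 0.0489 in WT2 and 0.258 in KO2, the lowest value of the 4 being a WT library. BC064078, named after its values were seen, was listed at 0 in WT1 and was at 0.0292 RPKM in KO1, 0.0607 in WT2 and 0.0525 in KO2. Clec2i, Clec2g, Klrb1f and 4922502D21Rik are listed for the replicate 1 libraries only, at 0 in both. Clec2i is the first gene inside the near edge of the window, and Klrb1b, the last before it, was likewise at 0 in WT1 and KO1.

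In the genes around the window no call was made. Within 1 Mb on either side lie 28 genes, of which 13 were tested and 0 were called. They include Klrb1a, Klrb1b, Klrb1c, Clec2h and Klra2, which are of the same gene families as the window and were not tested. Of the 19 in all 4 libraries, 2 were higher in KO within both numbers and 7 were lower. The median log2 change of the tested flanking genes was -0.12, against -0.021 over all genes. Among 21 C-type lectin genes listed as elsewhere in the genome, 6 were tested and 0 were called, with a median log2 change of 0.049. That list also holds Klrb1f of the window and Klrb1a, Klrb1b and Klrb1c of the flanks. Within both numbers, 3 of its 18 genes in all 4 libraries were higher in KO and 7 were lower. A difference between these groups and the complex was not itself tested.

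The adaptors and ligands of the receptors were also examined. Of 16 adaptor and signalling genes 6 were tested, 0 rose and 1 fell. That gene, Fcer1g, which encodes an adaptor of activating receptors that macrophages also carry, went from 2.22 to 0.273 RPKM in number 1 and from 13.0 to 6.05 in number 2 (adjusted p 0.0172 in limma with the number as second term). Tyrobp, the adaptor of activating Ly49 receptors, was at 0.521 RPKM in WT1 and 0.0289 in KO1, and at 1.52 in WT2 and 1.91 in KO2, and did not pass (limma adjusted p 0.853 in the same fit). Hcst, the adaptor of NKG2D, was at 0 in WT1 and KO1. Of 19 ligand genes, which include 4 genes of the complex, 9 were tested and 0 were called. B2m, the light chain of MHC class I, was at 171.5 RPKM in WT1, 196.4 in KO1, 215.4 in WT2 and 238.3 in KO2. H2-K1, a class I heavy chain, was at 6.39 RPKM in WT1, 6.16 in KO1, 13.2 in WT2 and 8.66 in KO2. H60b, which encodes a ligand of NKG2D, was at 0.414 RPKM in WT1, 1.23 in KO1, 0.369 in WT2 and 0.633 in KO2, and did not pass (limma adjusted p 0.173 in the same fit).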

How the data were processed

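RNA from WT and KO MEFs was sequenced on a Genome Analyzer IIx after DNase and RiboMinus treatment and poly-A selection, per the labels' protocols. The authors deposited RPKM values, 1 per RefSeq transcript row. Per the submitters' processing notes the build was mm9 and Partek was used, while the readme among the deposited files speaks of Cufflinks. Which aligner was run, and how multiply matching reads were counted, is not given in the sources used here. A further 18 samples (input, RNA polymerase II and histone marks) are not analysed here.

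Rows with no start position (1427 in the replicate 1 libraries and 862 in the replicate 2 libraries) were set aside. The other rows were summed per symbol and chromosome, which left 16271 genes in all 4 libraries. A filter of 0.5 RPKM in 2 or more libraries kept 11149 genes, which were compared as log2(RPKM + 0.5), a scale that understates the change of low genes, with no further scaling. The planned design was limma 3.58.1 in R 4.3.3 (lmFit, eBayes with trend and robust variance) with genotype as the only term, two-sided, with Benjamini-Hochberg adjustment over all tested genes and a threshold of 0.05. Adding the replicate number to the model was an alternative, given throughout because the files differ by number. Prior degrees of freedom were 9.68 in that fit. The deviations of same-numbered libraries from their group means correlated at 0.875 across genes. Nothing in the labels states that equal numbers mark paired libraries. The mapped reads per library, 132.2 M in WT1, 176.6 M in WT2, 122.5 M in KO1 and 136.1 M in KO2, come from olfactory receptor loci of at most 1000 bases, whose RPKM times length is a multiple of 1 read. All such loci above 0, 15 to 35 per library, were whole within 0.02 of a read. Of the 59 rows, 49 matched RefSeq by accession. Alignments of promoters used Biopython 1.88.

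The members and gene lists were chosen with earlier results of these data known. Members at 0.1 RPKM or more in any library were named with their values. From the gene lists, examples above 1 RPKM or past the threshold were named, besides some markers and ligands at lower levels. Genes that are named and fall outside this rule were chosen after their values were seen.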

Additional observations from a re-analysis of the deposited data

Results flagged for a closer look

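Signal appeared in KO1 alone for 2 genes of the complex that are listed for the replicate 1 libraries only and were at 0 in WT1. Clec1b, a platelet receptor gene, was at 0.00886 RPKM in KO1, which comes to 1.08 reads per kilobase of transcript. Klra22 was at 0.00669 RPKM in KO1, or 0.819 reads per kilobase. With no row in the replicate 2 libraries, neither value has a replicate.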

How the results depend on the processing

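With genotype as the only term, 0 genes and 0 members were called by limma, and the counts stayed at 0 with a pseudocount of 0.1 or 1, no filter, a filter of 1 RPKM, either scaling, 1 transcript per gene, and any 1 library left out (range 0 to 0). With the replicate number as a block, 75 genes and 3 members were called. In that design the counts of all genes and of members were 37 and 3 with a pseudocount of 0.1, 105 and 3 with median-ratio scaling, 187 and 2 with quantile normalization, 3 and 0 with the transcript of the highest mean, and 0 and 0 with no filter (1269 and 6 at an unadjusted p below 0.05). Every fit with the block gave Klra5, Olr1 and Klra18 a log2 change above 0. With 1 library left out and no block, the difference between the replicate numbers enters, and a lone library is assumed to vary like the others. The change then ran from 0.53 to 2.40 for Olr1 and from 0.21 to 2.03 for Klra18, and was 1.62 for Klra5, which fails the filter without either KO library and with a filter of 1 RPKM. It ran from -0.28 (without KO2) to 0.82 for Clec2d and from -0.092 (without WT1) to 0.33 for Gabarapl1, which was at -0.066 without KO2. Above 0.05 RPKM lay 15.3% of the rows of the complex in WT1 and 18.6% in KO1 (59.4% and 59.6% of all rows), and 55.6% in WT2 and 72.2% in KO2 (80.03% and 80.1% of all rows). Over rows in all 4 libraries, 66.7% were above 0 in WT1 and 94.4% in KO1 (91.7% and 92.6% of all rows). Some of these rows of the complex are listed for replicate 2 only because KO2 is above 0. That choice of rows can favour KO, and values below 1e-05 RPKM count as above 0, so these shares are a description. A difference of a few reads per kilobase was not detectable at this depth.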
